A study of Homo sapiens with 6 samples.

Results

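A set of 41 genes that mark intestinal epithelial differentiation and cell junctions was read in cells labelled LoVo, with and without depletion of the long noncoding RNA *SNHG15*. The set was chosen by name from the 63677 gene identifiers counted, with earlier results of these data known. It holds 8 transcription factors of the gut, 4 brush border or surface enzyme genes, 8 adhesion or surface glycoprotein genes, 5 keratins, 7 tight junction or desmosome genes, 7 genes of mucins and other secreted or envelope proteins, and *VIM* and *ZEB1* as a mesenchymal contrast. LoVo is a long-established line grown from a human colorectal cancer. The 3 *SNHG15* siRNA libraries came from cells given a mixture of siRNAs against *SNHG15*, and the 3 scramble libraries from cells given a negative control siRNA. Both groups were transfected with Lipofectamine 2000 at 25 nM for 48 h, so the controls carry the same reagent and siRNA load. A single cell line and a single siRNA mixture stand behind the comparison, and an effect of losing *SNHG15* and an effect of these siRNAs on other transcripts cannot be told apart in it.

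Epithelial cells of the intestine are held together by tight junctions, adherens junctions and desmosomes, carry keratin filaments, and bear a brush border on the side that faces the gut. Transcription factors of the CDX, HNF4, GATA and KLF families take part in the control of this programme. ZEB1 represses *CDH1* and other epithelial genes, and a gain of *ZEB1* and *VIM* with a loss of *CDH1* is the textbook sign of a shift from an epithelial to a mesenchymal state.

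The libraries held between 3446922 and 10256710 counts, and scramble replicate 3 was the shallowest. The targeted gene *SNHG15* was counted 2473, 2783 and 864 times in scramble replicates 1 to 3 and 557, 578 and 742 times in siRNA replicates 1 to 3, a log2 fold change of -1.74 (SE 0.12, adjusted p = 2.62e-05 from edgeR). This p, like every adjusted p given here for edgeR, is from its quasi-likelihood test and was adjusted by Benjamini-Hochberg over all genes tested. In a principal component analysis siRNA replicate 1 lay farthest from the scramble libraries along the first component, which held 46.0% of the variance. Mitochondrial genes took between 1.46% and 1.85% of the counts of a library. Ribosomal protein genes took between 11.88% and 12.37% in the scramble and between 10.89% and 11.74% in the siRNA libraries, without overlap, and the part of this difference in the results was not tested.

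The labelled cell type was checked first against 10 markers of colorectal epithelium, and 6 of them were at or near 0 counts. *KRT19*, *KRT20*, *VIL1* (with a limit given below) and *CDH17* had 0 counts in all 6 libraries, *EPCAM* had 2 counts in all and *LGALS4* 13. Only *KRT8*, *KRT18*, *CDX2* and *CDH1* were counted well. A count of 0 in 44583675 allows at most 3 counts, or 0.0673 CPM over the 6 libraries (CPM being counts scaled for library size). Levels in CPM also take edgeR's TMM factor, and floors, the filter's limit and values from counts summed over a group do not. The summed level of the 10 markers was nearly all from these 4 genes and lay between 102 and 110 CPM with scramble siRNA and between 106 and 117 CPM after depletion, with overlap. Keratin 20, villin and LI-cadherin (*CDH17*) are the transcripts by which colorectal epithelium is usually told from other epithelia, so the libraries labelled LoVo do not show most of the transcripts that define that label. Markers of other cell types were low as well. The 9 fibroblast and smooth muscle markers had 46 counts in all, the 8 leukocyte markers 7 and the 4 endothelial markers 3. The summed fibroblast markers lay between 0.469 and 0.895 CPM in the scramble libraries and between 1.15 and 1.64 in the siRNA libraries, without overlap, and the part of these few counts in the results below was not tested.

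The 41 genes fell into 4 classes by their counts. In 12 of them no read was counted in any library, and in a further 9 no library exceeded 3 counts, with 32 counts for these 9 genes over all 6 libraries. Together 21 genes (51.2%) lay at or under this floor of 3 counts, which is between 0.292 and 0.870 CPM depending on the library. Of all 19488 protein-coding genes 7810 (40.1%) did so. A further 5 genes were above the floor in some library without passing edgeR's filter on low counts, and 15 (36.6%) were tested, against 54.0% of protein-coding genes. All 15 were above the filter's limit of 1.31 CPM in each of the 6 libraries, so none entered through the group in which it was high. Floors of this kind cover counting error only.

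**Figure D1:**
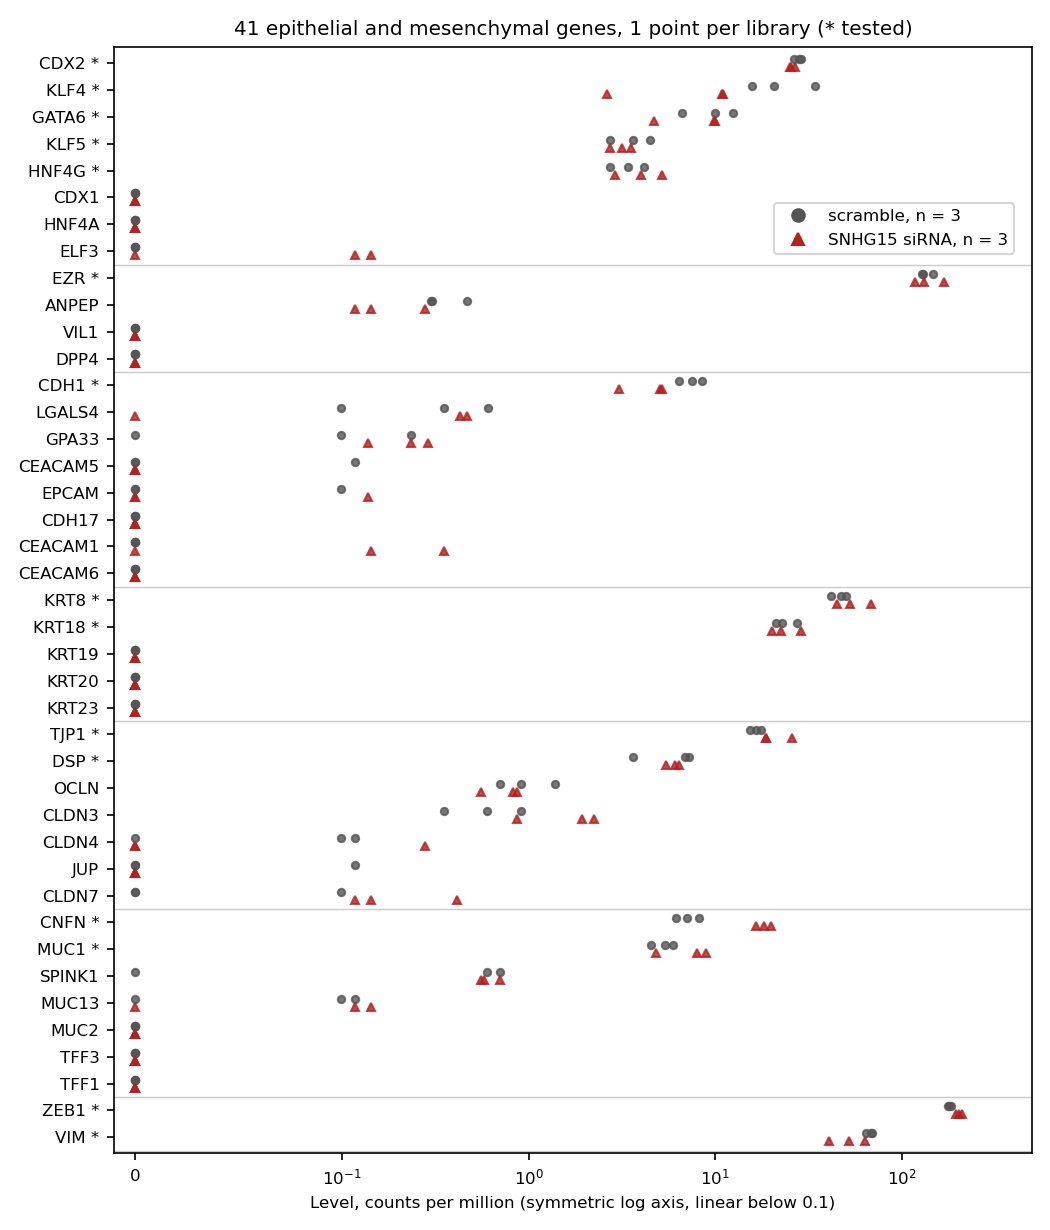
Level of each of the 41 genes in CPM on a symmetric log axis, with 1 point per library, grouped by role; gray circles are the 3 scramble and red triangles the 3 SNHG15 siRNA libraries, and an asterisk marks the 15 genes tested. The 12 genes without any count stand at 0 on the left, and EZR and ZEB1 lie above 100 CPM in every library.

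Of the 15 tested genes, *CNFN* rose and *KLF4* fell after *SNHG15* depletion, and 13 did not pass the test. These 2 of 15 (13.3%) stand beside 671 of all 12507 genes tested (5.36%), of which 392 were higher (3.13% of those tested) and 279 lower (2.23%). Because the set was chosen with earlier results of these data known, its share is a description and not a test. Log2 fold changes of the 15 genes had their median at -0.01, with 7 above 0 and 8 below, and those of all genes tested at 0.00. In 6 of the 15 genes the siRNA libraries lay entirely on one side of the scramble libraries, 3 above and 3 below. Of all genes tested 28.8% did so. An unadjusted p under 0.05 was reached by 5 of the 15 and by 2820 of the 12507. In bulk RNA of this kind, fewer cells of a type and less RNA per cell cannot be told apart.

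**Figure D2:**
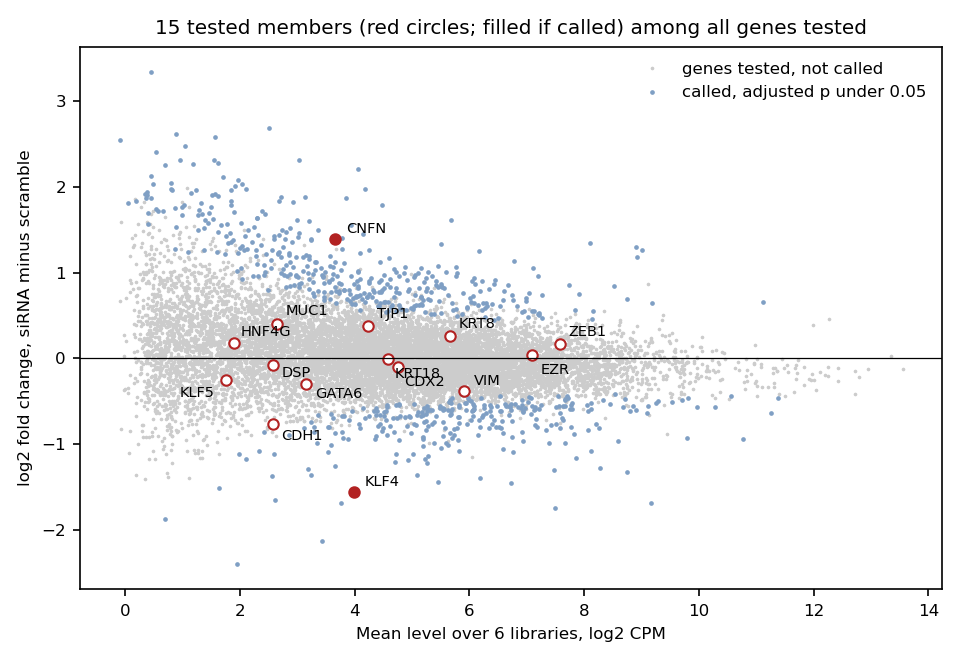
Log2 fold change (SNHG15 siRNA minus scramble) against the mean level over 6 libraries in log2 CPM, with 1 point per gene tested; gray points did not pass and blue points did (adjusted p under 0.05), and red circles are the 15 genes of the set, filled where they passed. CNFN at 1.39 and KLF4 at -1.56 lie at the edge of the cloud, and the other 13 lie within it.

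*CNFN* encodes cornifelin, a component of the cornified envelope of stratified epithelia, and gave the clearest change of the set. Its level was 7.03, 6.17 and 8.16 CPM in scramble replicates 1 to 3 and 19.96, 18.3 and 16.6 in siRNA replicates 1 to 3. Every siRNA library was above every scramble library, and the lowest siRNA library was above the highest scramble library by a wide gap. The mean rose from 7.12 ± 1.00 to 18.3 ± 1.70 CPM (SD, n = 3 each), a 2.63-fold increase (log2 fold change 1.39, SE 0.18, adjusted p = 0.00249 from edgeR), the 17th smallest p of all genes tested. *CNFN* (ENSG00000105427) lies on the minus strand at chr19:42891171-42894449 on GRCh37. Within 150 kb on either side 9 genes were tested and none passed at an adjusted p under 0.05 from edgeR, while *LIPE-AS1* alone among them reached an unadjusted p under 0.05 (log2 fold change 0.50, adjusted p = 0.119). *CEACAM1*, a further gene of the set, lies 117 kb away and had 4 counts in all.

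*KLF4* encodes a zinc finger factor that restrains proliferation and promotes the maturation of surface and goblet cells in the colon. It had 20.7, 34.2 and 15.7 CPM in scramble replicates 1 to 3 and 2.63, 10.9 and 11.04 in siRNA replicates 1 to 3. All siRNA libraries were below all scramble libraries, with scramble replicate 2 the highest and siRNA replicate 1 the lowest by far. The mean fell from 23.6 ± 9.56 to 8.202 ± 4.82 CPM (SD, n = 3 each). The log2 fold change was -1.56 (SE 0.38, adjusted p = 0.0320 from edgeR), and it had the 8th lowest log2 fold change of all genes tested. This call rested on the choice of libraries and tool. With DESeq2 the log2 fold change was -1.53 with an adjusted p of 0.164, and without scramble replicate 1, 2 or 3 it was -1.66, -1.17 and -1.74 with an adjusted p of 0.0803, 0.194 and 0.0516 from edgeR. Over all genes these 3 fits called 199, 139 and 266 genes in place of 671. Without siRNA replicate 1 the change was smaller and still passed, at -1.17 (adjusted p = 0.0161 from edgeR). *KLF4* (ENSG00000136826) lies on the minus strand at chr9:110247133-110252763 on GRCh37. Its 6 neighbours within 150 kb among the identifiers counted had at most 1 count each. An antisense long noncoding RNA gene (ENSG00000289987) overlaps 9.75% of its exons and was not among the identifiers counted.

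The promoters of *CNFN* and *KLF4*, the genes that changed, are shown beside those of *CDX2*, a factor of the gut that was counted in every library, and *KRT20*, a marker of the gut that was not counted at all. Each line gives the 250 bases before the first start of transcription listed for the gene in RefSeq on GRCh38.p14. It reads 5′ to 3′ on the strand of the gene, which is the minus strand for all 4. Capitals mark CpG dinucleotides, sites where DNA can be methylated, which cluster in the promoters of widely used genes. Methylation was not measured in these libraries.
CNFN, chr19:42390298-42390547: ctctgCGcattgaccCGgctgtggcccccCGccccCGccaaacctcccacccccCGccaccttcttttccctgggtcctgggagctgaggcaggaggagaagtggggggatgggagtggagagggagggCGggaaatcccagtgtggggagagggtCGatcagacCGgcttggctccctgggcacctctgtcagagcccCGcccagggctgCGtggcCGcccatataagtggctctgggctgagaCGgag
KLF4, chr9:107489770-107490019: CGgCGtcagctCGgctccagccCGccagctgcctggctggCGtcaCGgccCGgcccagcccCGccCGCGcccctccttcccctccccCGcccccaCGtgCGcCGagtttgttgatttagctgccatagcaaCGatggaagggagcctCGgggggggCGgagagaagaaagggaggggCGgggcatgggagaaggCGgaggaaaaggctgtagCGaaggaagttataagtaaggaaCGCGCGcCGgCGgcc
CDX2, chr13:27969316-27969565: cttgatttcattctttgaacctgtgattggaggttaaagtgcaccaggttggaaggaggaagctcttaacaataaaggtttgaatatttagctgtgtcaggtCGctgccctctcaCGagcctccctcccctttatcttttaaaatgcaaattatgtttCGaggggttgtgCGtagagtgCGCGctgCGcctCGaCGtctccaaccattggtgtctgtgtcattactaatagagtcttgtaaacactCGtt
KRT20, chr17:40885243-40885492: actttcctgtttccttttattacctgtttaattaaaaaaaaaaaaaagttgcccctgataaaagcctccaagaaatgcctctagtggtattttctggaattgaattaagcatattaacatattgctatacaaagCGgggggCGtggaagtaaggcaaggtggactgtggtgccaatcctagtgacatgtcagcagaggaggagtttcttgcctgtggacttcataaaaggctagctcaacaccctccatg
These stretches hold 12 CpG in *CNFN*, 25 in *KLF4*, 10 in *CDX2* and 2 in *KRT20*.

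Among the other transcription factors, members of the same family were counted very unequally. *CDX2*, the homeobox factor that sets intestinal identity, had 26.4, 28.2 and 29.0 CPM in the scramble and 25.4, 26.8 and 25.6 CPM in the siRNA libraries, whereas its relative *CDX1* had 0 counts. The groups of *CDX2* overlapped, and its log2 fold change of -0.10 had a 95% interval from -0.40 to 0.19 (adjusted p = 0.703 from edgeR). *HNF4A*, the nuclear receptor that drives enterocyte genes, had 0 counts as well, and *HNF4G*, its relative in the same tissue, had 3.40, 4.18 and 2.72 against 2.91, 4.03 and 5.17 CPM, with overlapping groups (log2 fold change 0.18, SE 0.29). *GATA6*, a zinc finger factor of gut endoderm, had 9.96, 12.4 and 6.65 against 4.71, 9.93 and 9.98 CPM, with siRNA replicate 1 the lowest (log2 fold change -0.29, SE 0.28). *KLF5*, which sustains proliferation in the crypt and is often set against *KLF4*, had 3.63, 4.48 and 2.72 against 3.19, 2.73 and 3.52 CPM, and its groups overlapped (-0.26, SE 0.27). None of *HNF4G*, *GATA6* and *KLF5* passed the test. *ELF3*, an epithelial ETS factor, had 2 counts in all.

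The genes of the brush border gave a single readable member. *EZR*, which encodes ezrin and links the membrane to actin in microvilli and in many other cells, had 129, 148 and 128 CPM in the scramble and 168, 132 and 117 CPM in the siRNA libraries. Both the highest and the lowest library were siRNA libraries, and the log2 fold change was 0.04 (SE 0.14, adjusted p = 0.903 from edgeR). *VIL1* (villin, the actin bundler of microvilli) and *DPP4* (a peptidase of the brush border) had 0 counts. *USP37*, a gene on the opposite strand with 228 counts over all libraries, overlaps 44.2% of the exons of *VIL1*. The use of strand in counting is not given, and the part of this overlap in the 0 of *VIL1* was not tested. *ANPEP*, the aminopeptidase N of the brush border, had 8 counts in the scramble and 4 in the siRNA libraries.

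*CDH1* was the only tested member of the adhesion genes, and it was lower in every siRNA library without passing the test. It encodes E-cadherin, the adhesion molecule of adherens junctions. It had 6.45, 8.55 and 7.56 CPM in scramble replicates 1 to 3 and 3.05, 5.18 and 5.05 in siRNA replicates 1 to 3. The groups did not overlap, and siRNA replicate 1 was again the lowest. The log2 fold change was -0.76 (SE 0.25, 95% interval from -1.30 to -0.22), with an unadjusted p of 0.00970 in the fit across all genes and an adjusted p of 0.0945 from edgeR. Without the filter on low counts the adjusted p was 0.0423. The surface genes that mark colorectal cells were at or near 0 counts. *CDH17* (LI-cadherin) and *CEACAM6* (a surface glycoprotein shared with granulocytes) had 0 counts, *CEACAM5*, the gene of carcinoembryonic antigen, 1 count, *EPCAM*, the pan-epithelial adhesion molecule, 2 counts, *CEACAM1*, a related glycoprotein, 4 and *GPA33*, the A33 antigen of the gut, 8. *LGALS4*, the galectin of enterocytes, had 6 counts in the scramble and 7 in the siRNA libraries. The 3 *CEACAM* genes are close copies of each other, and how reads shared among them were counted is not given in the sources used here.

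Keratins split in the same way. *KRT8* and *KRT18* form the filament pair of simple epithelia and were the only 2 of 5 that were counted. *KRT8* had 41.6, 47.5 and 50.2 CPM in the scramble and 68.3, 45.0 and 53.0 CPM in the siRNA libraries, where replicate 1 was the highest (log2 fold change 0.26, SE 0.16, adjusted p = 0.369 from edgeR). *KRT18* had 27.5, 21.3 and 23.0 against 20.2, 28.9 and 22.6 CPM, and its log2 fold change was -0.01 (SE 0.17). Per kilobase of all annotated exons joined, the ratio of *KRT8* to *KRT18* ranged from 0.674 to 0.996 in the scramble libraries. It ranged from 0.695 to 1.51 in the siRNA libraries. Both genes carry a limit. They overlap over 525 bp on opposite strands, and the 51 *KRT8* and 67 *KRT18* pseudogenes in the table held 51 and 101 counts, or 2.26% and 9.49% of the counts of the gene itself. *KRT19*, *KRT20* and *KRT23*, the type I keratins of ductal, intestinal and cancer cells, had 0 counts, and they lie in the keratin cluster of chromosome 17, where *KRT20* and *KRT23* are 37.5 kb apart.

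Of the 7 tight junction and desmosome genes only *TJP1* and *DSP* had enough counts to be tested. *TJP1* encodes ZO-1, the scaffold under tight junctions, and had 16.6, 15.3 and 17.5 CPM in the scramble and 18.9, 18.8 and 26.0 CPM in the siRNA libraries. The siRNA libraries were all above the scramble libraries by a small margin, with replicate 3 the highest, and the log2 fold change of 0.38 (SE 0.17, adjusted p = 0.213 from edgeR) did not pass. *DSP* encodes desmoplakin, which ties desmosomes to keratin, and had 6.91, 7.26 and 3.63 against 6.38, 5.47 and 6.11 CPM, with scramble replicate 3 the lowest (log2 fold change -0.07, SE 0.25). *JUP*, the plakoglobin of desmosomes and adherens junctions, had 1 count in all.

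The claudins are the strand-forming proteins of tight junctions, and none of the 3 in the set had enough counts to be tested. *CLDN4* had 4 counts and *CLDN7* 6. *CLDN3* had 3, 6 and 3 counts in the scramble and 14, 6 and 19 in the siRNA libraries, or 0.532 against 1.77 CPM from the counts summed over each group without TMM, and the groups overlapped at siRNA replicate 2. It was too low for the filter, and in the fit without the filter its log2 fold change was 1.57 with an adjusted p of 0.0439 from edgeR. *CLDN4* lies 29.3 kb from *CLDN3* on chromosome 7. *OCLN*, which encodes occludin, had 23 counts in the scramble and 17 in the siRNA libraries.

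Of the mucins and trefoil factors in the set, only *MUC1*, a membrane mucin of many epithelia, was above the floor. It had 5.39, 5.97 and 4.54 CPM in the scramble and 8.04, 8.92 and 4.82 CPM in the siRNA libraries. The first 2 siRNA libraries were above all others, the third lay among the scramble libraries, and the log2 fold change of 0.41 (SE 0.26, 95% interval from -0.16 to 0.97) did not pass (adjusted p = 0.379 from edgeR). *MUC2*, the gel-forming mucin of the colon, and *TFF1* and *TFF3*, trefoil peptides secreted with mucus, had 0 counts. *MUC13*, a membrane mucin of the gut, had 4 counts. *SPINK1*, a secreted trypsin inhibitor, had 12 counts in the scramble and 14 in the siRNA libraries. *CNFN*, described above, was the only gene of this group that changed.

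The mesenchymal contrast genes were both well counted, lay on opposite sides of the scramble libraries and did not pass the test. *ZEB1* had 178, 180 and 184 CPM in the scramble and 202, 195 and 210 CPM in the siRNA libraries, all above the scramble libraries (log2 fold change 0.16, SE 0.11, adjusted p = 0.417 from edgeR). *VIM*, which encodes the intermediate filament vimentin, had 69.6, 68.8 and 64.7 against 40.6, 52.2 and 63.3 CPM. All siRNA libraries of *VIM* were lower, siRNA replicate 3 by little, and the log2 fold change was -0.38 (SE 0.16, adjusted p = 0.177 from edgeR). An antisense gene, *VIM-AS1*, overlaps 12.7% of the exons of *VIM*, and another, *ZEB1-AS1*, overlaps 4.58% of those of *ZEB1*. These antisense genes had 131 and 1072 counts over all libraries, and the use of strand in counting is not given.

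**Figure D3:**
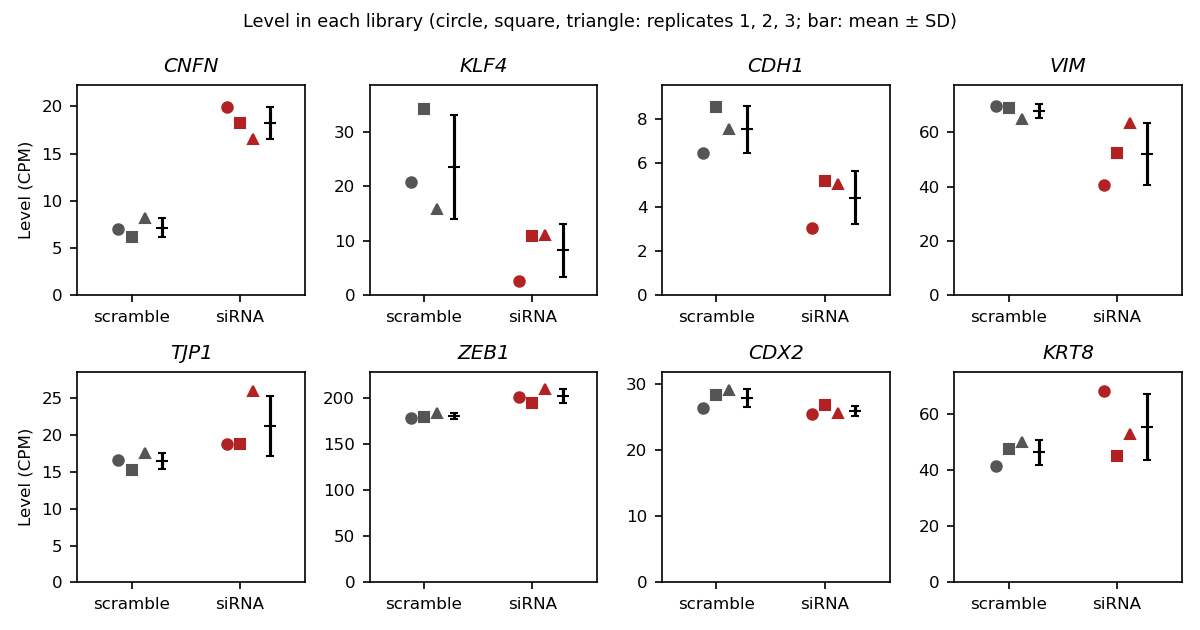
Level in CPM of 8 genes in each library, with circle, square and triangle for replicates 1, 2 and 3, gray for scramble and red for SNHG15 siRNA, and a bar for the mean ± SD (n = 3). The groups are separate in CNFN, KLF4, CDH1, VIM, TJP1 and ZEB1 and overlap in CDX2 and KRT8.

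Among the siRNA libraries, the one farthest from the scramble mean was replicate 1 in 9 of 15 genes, and replicates 2 and 3 in 3 genes each. *CNFN* passed in all 6 fits that left out 1 library, with log2 fold changes from 1.29 to 1.46, and in all 6 alternatives that kept every library. The 13 genes that did not pass stayed between -0.88 and 0.64 in all fits that left out 1 library, and *HNF4G*, *EZR*, *KRT18* and *DSP* changed sign in some of them.

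**Figure D4:**
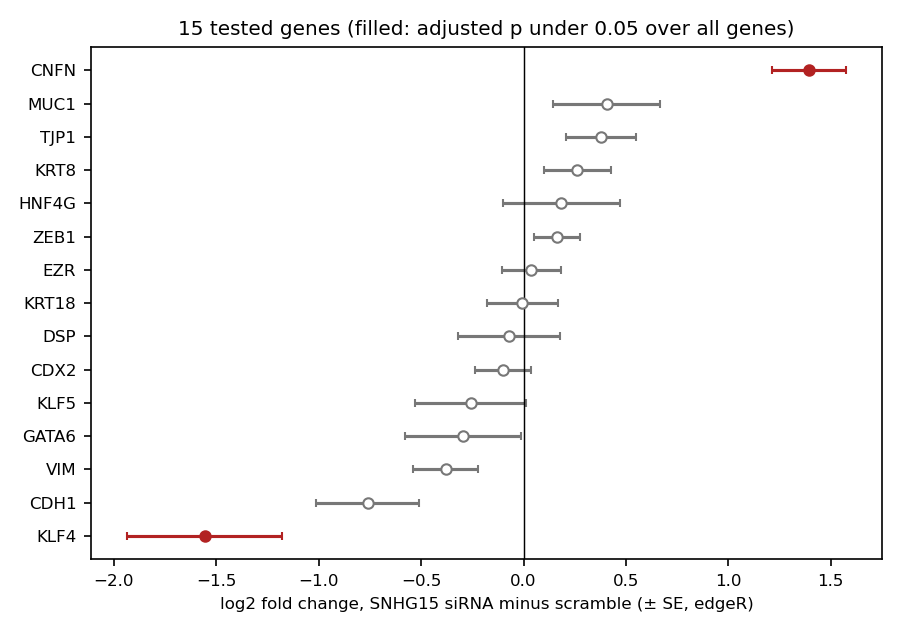
Log2 fold change (SNHG15 siRNA minus scramble) of the 15 tested genes with its standard error from edgeR (3 libraries per group), in order of size; filled red points mark an adjusted p under 0.05 over all genes. Only CNFN and KLF4 passed, and the error bars of HNF4G, EZR, KRT18, DSP, CDX2 and KLF5 cross 0.

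Levels were compared between genes only per kilobase of exon, as the scramble mean of CPM per kb. Length was that of all annotated exons of a gene joined, which can be longer than any 1 of its transcripts. The order and ratios depend on this choice, which the SDs do not cover. Shares of genes tested are over the 12264 of them with a length. *EZR* was the highest of the 15 at 41.1, above 88.2% of the genes tested, followed by *ZEB1* at 20.9, *VIM* at 13.1 and *CNFN* at 11.6. *CDX2* at 7.93 ± 0.389 and *KRT18* at 7.80 ± 1.05 (SD, n = 3 each) came next and differed by less than their spread, as did *KRT8* at 6.75 ± 0.640 and *KLF4* at 6.43 ± 2.61 after them. *GATA6* stood lower at 2.55 ± 0.763. The junction genes *TJP1* at 1.46 and *CDH1* at 1.24 were above only 24.3% and 21.7% of the genes tested, and *DSP* at 0.436 was the lowest. Per kilobase the ratio of *ZEB1* to *CDH1* lay between 14.8 and 19.4 in the scramble libraries and between 26.5 and 46.5 in the siRNA libraries, with the highest value in siRNA replicate 1. The ratio of *VIM* to *KRT8*, per kilobase as well, lay the other way, between 1.71 and 2.22 in the scramble libraries and between 0.790 and 1.59 in the siRNA libraries, with the lowest value in siRNA replicate 1. These ratios were chosen after their values were seen and have no test.

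A wider group of 168 genes of the same pathways, also chosen with earlier results of these data known, was read in the same fit. At or under the floor were 109 of them (64.9%), 71 with no count at all, and 47 were tested. All but 1 of these 47 were above the filter's limit in every library. The absorptive enterocyte and colonocyte genes were at or under the floor in 31 of 34 cases, and the goblet and secretory genes in 19 of 20. Other epithelial identity genes were at or under it in 10 of 16, other keratins and envelope proteins in 13 of 23, other transcription factors of the gut in 12 of 18 and other mesenchymal genes in 12 of 18. The genes of cell architecture were the exception, with 7 of 22 tight junction and polarity genes and 5 of 17 adherens junction and desmosome genes there.

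Of the 47 tested genes in this wider group, 3 rose and 1 fell, against the 3.13% and 2.23% of all genes given above, and their median log2 fold change was 0.10. *ERBB3*, a receptor of the epidermal growth factor family common in epithelia, had 4.34, 4.77 and 7.26 CPM in the scramble and 13.7, 8.199 and 13.2 CPM in the siRNA libraries (log2 fold change 1.19, SE 0.26, adjusted p = 0.0197 from edgeR). *ONECUT2*, a factor of gut and liver endoderm, had 4.10, 4.08 and 2.12 against 8.32, 6.19 and 7.63 (1.00, SE 0.26, adjusted p = 0.0396 from edgeR). *AFDN*, the afadin that joins nectins to actin, had 22.7, 24.3 and 18.4 against 36.7, 30.2 and 32.9 (0.59, SE 0.15, adjusted p = 0.0443 from edgeR). These 3 genes were higher in every siRNA library than in any scramble library. *CD44*, a hyaluronan receptor counted among the mesenchymal genes and also present in crypt cells, had 134, 134 and 142 CPM against 76.7, 101 and 99.1 and was lower in every siRNA library (log2 fold change -0.57, SE 0.13, adjusted p = 0.0274 from edgeR). *ONECUT2* and *AFDN* passed in 0 of the 6 fits that left out 1 library, where their adjusted p from edgeR ran from 0.0576 to 0.112 and from 0.0577 to 0.142, and they did not pass with the replicate number as a block (adjusted p = 0.0660 and 0.0701 from edgeR). *ERBB3* passed in 4 of 6, failing without scramble replicate 1 or 2, and *CD44* in 2 of 6, failing without any of the scramble replicates and without siRNA replicate 2, with adjusted p values up to 0.112 and 0.101 from edgeR.

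By list, the tight junction and polarity genes had 12 members tested and none passed at an adjusted p under 0.05 from edgeR, with 3 at an unadjusted p under 0.05 and a median log2 fold change of 0.19. The 10 tested adherens junction and desmosome genes had a median of 0.07, and *AFDN* was their single change. All 4 tested mesenchymal genes had log2 fold changes below 0, from -0.57 to -0.02, and *CD44* alone among them passed. The 5 tested keratins and envelope proteins ranged from -0.39 to 0.29 and none passed, with 2 at an unadjusted p under 0.05. Of the 3 tested enterocyte genes none passed, and *CA2*, carbonic anhydrase 2, came closest at -0.53 (adjusted p = 0.0513 from edgeR). The 6 tested transcription factors had a median of 0.18 and the 6 tested identity genes a median of 0.22. The single tested goblet and secretory gene was *MUC12*, a membrane mucin, with 51.6, 36.4 and 48.1 CPM in the scramble and 61.97, 41.7 and 42.9 CPM in the siRNA libraries, which overlapped (log2 fold change 0.11, SE 0.18, adjusted p = 0.756 from edgeR).

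Promoters of 30 of the 41 genes were in the RefSeq table, each as a window of 300 bases from 250 before to 50 after the start. Only the first start listed for a gene was taken, and whether these cells used that start was not tested. *CDX1*, *HNF4G*, *VIL1*, *CDH1*, *CDH17*, *EPCAM*, *KRT18*, *KRT19*, *KRT23*, *TFF1* and *TFF3* were not analysed here. Genes of the set that were counted had more CpG in these windows, at the median, than genes that were not. The median was 5 CpG in the 13 genes at or under the floor, 24 in the 5 genes above it that were not tested and 16.5 in the 12 tested genes. Over all protein-coding genes the medians were 8 for the 5493 at or under the floor and 27 for the 8676 tested, in the same order as in the set. The tested genes of the set had fewer CpG than tested genes in general. An observed over expected CpG ratio of at least 0.6, a usual limit for a CpG island, was reached in 2 of 13, 3 of 5 and 7 of 12 genes of the set, and in 36.8% and 87.0% of the protein-coding genes at or under the floor and tested. In these windows *DPP4* went against the pattern with 34 CpG and 0 counts, and *KRT8* with 2 CpG and 2256 counts over the 6 libraries. The counts are per gene and do not show from which start the *KRT8* reads came, so its window need not be the promoter in use.

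**Figure D5:**
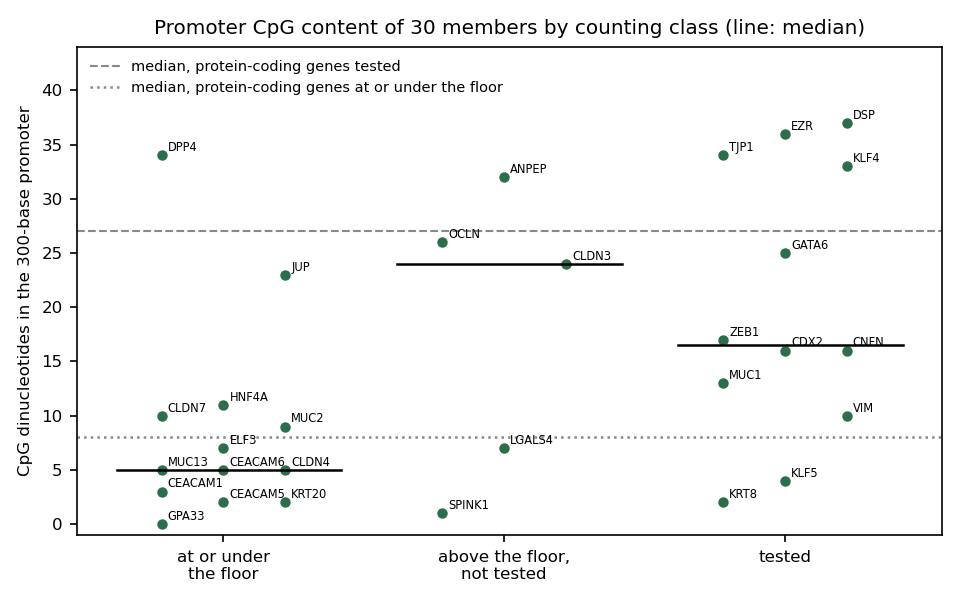
Number of CpG dinucleotides in the 300-base promoter window of 30 genes of the set, by counting class, with 1 point per gene and a black line at the class median; the dashed and dotted lines are the medians of 27 and 8 over protein-coding genes tested and at or under the floor. Most genes at or under the floor lie at or below 11 CpG, with DPP4 and JUP above.

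Short motifs were counted in the same windows on both strands, as letters and not as binding sites. CCCCGCCC, a sequence bound by KLF and SP factors, was in 7 of the 12 tested genes (58.3%), among them *CNFN* and *KLF4*, and in 2 of the 13 at or under the floor, against 40.7% of tested protein-coding genes and 22.9% of all 27305 promoters. CACCTG, the E-box of ZEB factors, was in 13 of 30 (43.3%) against 20.6% of all promoters, with *ZEB1* itself among them. AGGAAG, a core of ETS sites, was in 15 of 30 against 33.7%. TTTATG, a CDX motif, was found only in *KRT20* and *MUC2* (2 of 30, against 2995 of 27305), both without counts. CAAAGTCCA or CAAAGTTCA, forms of the HNF4 motif, occurred in *MUC13* alone (3.33% against 0.659%). AGATAA, which is bound by factors of the GATA family, was in *CDX2* and *HNF4A* (2 of 30, against 10.5%). TATAAA, the usual form of the promoter element of that name, was in 4 of 30 (against 3264 of 27305). The searched motifs can overlap in a window, and these shares are a description without a test.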

How the data were processed

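RNA of cells labelled LoVo was sequenced in 6 libraries, 3 per condition, with a stranded mRNA kit and paired-end reads of 75 bp. The authors deposited raw counts of reads per gene, without normalization. The paper's methods name bowtie2 against hg19 for the alignment and DESeq2 for the comparison, and the submitters' processing notes name STAR and featureCounts with hg19. RNA was isolated with TRIzol per the labels and with a Maxwell kit per the paper's methods. Which aligner and counting settings made the table, the gene annotation and the use of strand and of multiply placed reads are not given in the sources used here. Genes with copies or overlapping neighbours are therefore uncertain. The paper's methods call the replicates biological. Each pair of replicates differed beyond sampling noise (chi-square per degree of freedom from 4.34 to 20.4). Groups came from the sample labels, and 0 columns were left unassigned.

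The deposited counts were filtered by edgeR 4.0.16 (R 4.3.3) with filterByExpr at a minimum count of 10 and total of 15, scaled by TMM (factors from 0.961 to 1.06) and tested with the quasi-likelihood test without a block. A gene was called changed at a Benjamini-Hochberg adjusted p under 0.05 over all 12507 genes tested. Levels are CPM after TMM, floors are CPM without it, and the SE is the log2 fold change divided by the root of its F statistic. Library totals ran from 3446922 to 10256710. Names and positions came from GENCODE 44 mapped to GRCh37, which matched 55665 of 63677 identifiers, and promoters from RefSeq on GRCh38.p14. Of the genes listed around the set, 4 were not used here. In counts simulated for the 12507 genes with 200 changed by 1 on the log2 scale, edgeR recovered 159 with 6 false calls and DESeq2 146 with 9. The simulation gave genes of like level the same spread between replicates and held no outlying library. It therefore does not measure recovery in the real counts.

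The 41 genes and the other lists were chosen with earlier results of these data known. Every gene of the set is named, and from each other list every gene past the threshold up to 5 by p. *CA2*, *MUC12*, *LIPE-AS1* and *CEACAM1* beside *CNFN* were named after their values were seen. Alternatives were DESeq2 1.42.0, RLE and upper-quartile factors, no filter, at least 10 counts in every library, the replicate number as a block, and leaving out each library.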

Additional observations from a re-analysis of the deposited data

How the results depend on the processing

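The number of genes changed (671, of which 392 higher and 279 lower) was 1312 without the filter on low counts and ran from 139 to 812 when 1 library was left out, lowest without scramble replicate 2. With upper-quartile factors it was 745, with 515 higher and 230 lower. Of the set, 1 gene passed with DESeq2 and 4 without the filter, where *CLDN3* and *CDH1* joined *CNFN* and *KLF4*, and 1 to 2 passed when 1 library was left out. Of the wider group, 7 passed without the filter and 0 to 8 when 1 library was left out. At 0, without scramble replicate 1 or 2, the counts at an unadjusted p under 0.05 from edgeR were 11 and 7, and DESeq2 with all libraries called 5.

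The replicate numbers were checked for pairing. Deviations of libraries with the same number correlated at -0.0703, 0.155 and -0.0416, and those of libraries with different numbers from -0.166 to 0.145. With 3 libraries per group these values cannot show whether libraries with the same number were handled together. With the replicate block 543 genes passed, 2 of the set and 2 of the wider group.

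Direction reversed only in genes near 0. *KRT18* was 0.031 with upper-quartile factors and 0.016 under the filter of 10 counts in each library. When 1 library was left out, the log2 fold change ran from -0.16 to 0.11 for *KRT18*, from -0.046 to 0.37 for *HNF4G*, from -0.12 to 0.15 for *EZR* and from -0.25 to 0.081 for *DSP*. Over the alternatives that kept all libraries, 111 of 117 values for single genes kept their direction and side of the threshold, and 91 of 120 did so when 1 library was left out. Causes of these differences were not tested. A gene with 3 counts or fewer in every library could not be compared at this depth.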
